A study of Saccharomyces cerevisiae with 24 samples.

Results

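The mRNA of budding yeast without MBF1 was compared with that of wild type cells in the absence of any treatment, gene by gene. The comparison used the 3 untreated mbf1Δ and the 3 untreated wild type libraries, chosen by their labels, which are 6 of the 24 libraries of the series. All cells were haploid BY4741 of mating type a, grown in rich medium (YPD) to an optical density near 0.6, and the deletion strain carried mbf1Δ::NAT, in which a nourseothricin resistance cassette replaces the gene. All strains share the BY4741 requirement for histidine, leucine, methionine and uracil. The other untreated groups (gcn2Δ::KAN and gcn4Δ::KAN) and the mbf1Δ and wild type cells exposed for 1 h to 0.1% MMS (methyl methanesulfonate, which alkylates nucleic acids) are used below only to place the untreated difference. Each of these groups held 3 biological replicates per the series text, and the labels do not say whether the replicates came from separate deletion clones.

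Mbf1 (multiprotein bridging factor 1) is a small conserved protein that links the transcription factor Gcn4 to the TATA-binding protein, which makes it a coactivator of amino acid biosynthesis genes. It also sits on collided ribosomes, where it limits frameshifting. Gcn4 is made mainly when the kinase Gcn2 phosphorylates the initiation factor eIF2, so in fed cells its targets run at a basal level. The untreated comparison asks how far the transcriptome of the mutant differs before any stress.

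The libraries behaved as their labels say. MBF1 (YOR298C-A, chromosome XV, 877230 to 877685, minus strand, build R64) had 2790, 3376 and 3872 counts in wild type and 36, 27 and 38 counts in mbf1Δ, so it is left out of all results below. The 6 libraries held from 14358249 to 18566443 counts. URA3 and MET17 had 0 counts in all 6 libraries, LEU2 stayed at or below 0.742 CPM (counts scaled to library size), and HIS3 lay between 58.8 and 66.5 CPM. HIS3 thus kept reads despite the histidine requirement, and where in the gene they lie was not tested. Of the mating type a genes, the pheromone receptor gene STE2 had 838 to 1002 CPM, while MF(ALPHA)1, which encodes the alpha pheromone, had at most 0.318 CPM. Not all alpha genes were near 0. Of the 4 alpha genes listed as markers, 3 passed the count filter, with MF(ALPHA)2 and STE3 among them. Their mean log2 CPM was 3.01 to 3.49 in the 6 libraries. Reads over the 4 genes of the ribosomal RNA locus took 18.6%, 17.3% and 11.6% of the counts in the wild type libraries and 8.85%, 14% and 14.9% in the mbf1Δ libraries. They took 7.38%, 8.12% and 7.54% in untreated gcn2Δ and 1.37%, 1.49% and 1.00% in untreated gcn4Δ, so comparisons with these strains also differ in this share. Wild type replicate 3 and mbf1Δ replicate 1 stood apart from their groups. In chi-square per degree of freedom over genes, wild type replicate 3 lay 93.6 and 93.7 from the others, which lay 7.26 from each other, and mbf1Δ replicate 1 lay 48.3 and 68.9 from the others, which lay 11.2 from each other. Values are CPM after TMM scaling, which corrects library sizes for composition.

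Very few genes differed between untreated mbf1Δ and wild type. Of 5823 genes tested, 9 passed edgeR's quasi-likelihood test at an adjusted p under 0.05 (0.155%), with 1 higher (0.0172%) and 8 lower (0.137%) in the mutant. The single gene that rose was MUM3, the convergent neighbour of MBF1. Of the 8 that fell, 6 belong to the phosphate regulon, namely PHO5, PHO11, PHO12, PHO89, SPL2 and VTC3. The remaining pair, YFL066C and YFL067W, lie side by side near the left end of chromosome VI. At an unadjusted p under 0.05, 275 genes (4.72%) passed, 184 of them higher (3.16%) and 91 lower (1.56%). DESeq2 called 3 genes higher and 13 lower, and limma on TPM called 7 and 7. Without wild type replicate 3 the edgeR counts were 1 higher and 6 lower, and without mbf1Δ replicate 1 they were 1 and 5.

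Most of the transcriptome was measured closely enough to bound a difference. The 95% interval of the log2 fold change lay within a 1.5-fold change either way for 5272 genes (90.5%) and within a 2-fold change for 5620 genes (96.5%). The median absolute log2 fold change over all genes was 0.0703. A further 32 genes had a fitted change of 2-fold or more without passing the test. Of these, 30 had a mean under 50 counts in both groups and 17 had a close copy at another locus.

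**Figure D1:**
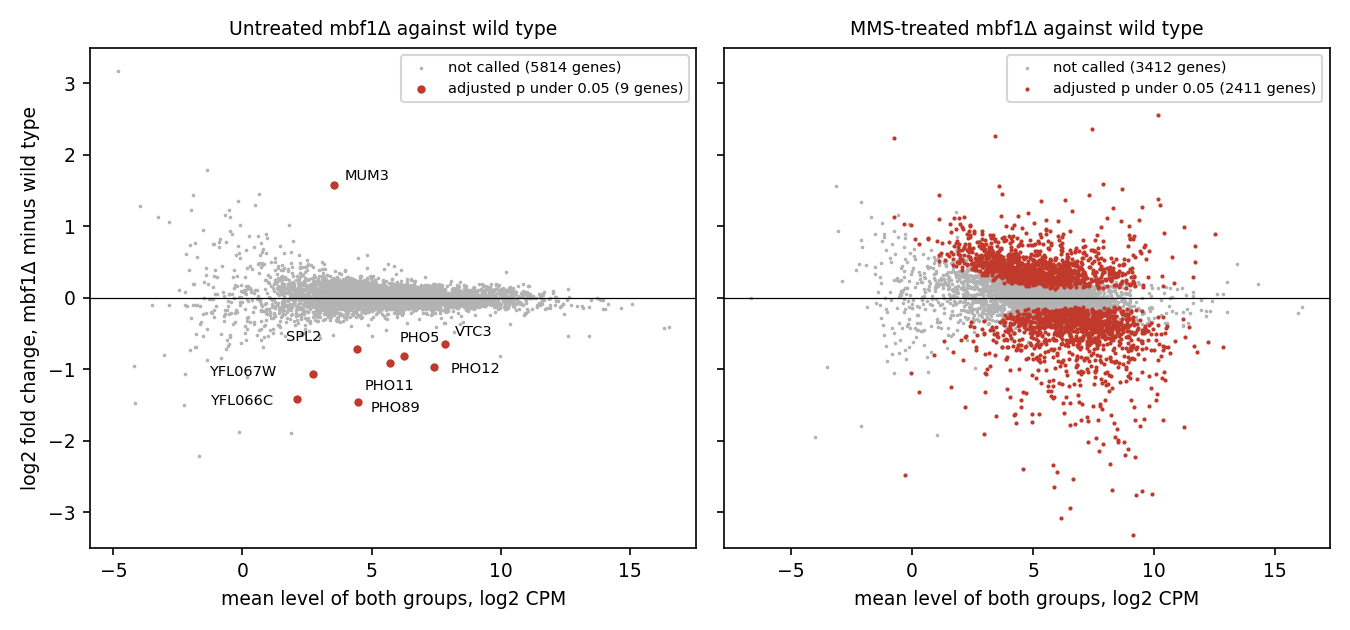
Each point is a gene, placed by its mean level in both groups (log2 CPM) and its log2 fold change in mbf1Δ against wild type, without treatment (left) and after MMS (right), with red points for an adjusted p under 0.05. The untreated panel holds 9 red genes, all named, against 2411 (41.4%) in the MMS-treated panel, and 10 and 2 genes lie beyond the axis limits of 3.5.

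The same strains differed widely after MMS. In MMS-treated mbf1Δ against MMS-treated wild type, 1258 genes (21.6%) were higher and 1153 (19.8%) lower by the same test, and the change of the mbf1Δ effect between treatments itself passed for 1396 genes (24%). On the TPM scale limma called 1554 higher and 530 lower after MMS, with the median of all genes shifted by 0.21.

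MUM3 (YOR298W, chromosome XV, 875599 to 877038, plus strand) encodes a protein needed for the outer spore wall. It had 6.5, 4.81 and 6.16 CPM in wild type and 17.9, 16.6 and 18 CPM in mbf1Δ, which correspond to 65, 54 and 91 counts against 235, 203 and 242 counts. The groups did not overlap. MUM3 rose 3.00-fold (log2 1.58, SE 0.13, edgeR adjusted p = 1.26e-07), and it was also higher than in untreated gcn2Δ (log2 1.57, SE 0.12, adjusted p = 2.23e-08) and gcn4Δ (log2 1.37, SE 0.12, adjusted p = 6.05e-08). It was the single gene that passed in the same direction against all 3 other untreated strains.

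After MMS the sign turned. MUM3 had 13.6, 13 and 13.2 CPM in MMS-treated wild type and 8.23, 8.01 and 9.69 CPM in MMS-treated mbf1Δ, a fall of 0.62 on the log2 scale (SE 0.12, adjusted p = 0.000224). The difference between the treatments passed the test (log2 -2.21, SE 0.18, adjusted p = 2.75e-09). Residual reads over MBF1 in the deletion strain moved alongside: 27 to 38 counts without treatment and 2 to 8 after MMS, and their part in the MUM3 values was not tested.

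The coding regions of MUM3 and MBF1 face each other with 191 bases between them. The deposited length of a gene exceeds its coding span by 400 bases, and if these are split evenly the models of this pair overlap by 209 bases. The files do not place reads within a gene or record strand, so whether the added MUM3 reads lie in its coding region, in the shared end or in the resistance cassette's flank was not tested.

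No other gene near the deleted locus passed edgeR's test with all libraries. On the right, BUD7, which encodes a subunit of the exomer complex for export to the cell surface, had 83.2, 87.7 and 83.1 CPM in wild type and 106, 94.8 and 104 CPM in mbf1Δ. Its libraries did not overlap, but the difference (log2 0.26, SE 0.06) missed the threshold with an adjusted p of 0.0795. BUD7 did pass with DESeq2 and in the edgeR fit without mbf1Δ replicate 2. The other 4 of the 3 nearest genes on each side were TIM18 (log2 0.18, SE 0.09), YOR296W (0.06, SE 0.12), RAX1 (-0.02, SE 0.12) and YOR302W (0.32, SE 0.18), each with an adjusted p of 0.999. The median log2 fold change per nuclear chromosome ran from -0.013 on chromosome I to 0.015 on chromosome XI, with 0.0055 on chromosome XV, so no nuclear chromosome was shifted as a whole.

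**Figure D2:**
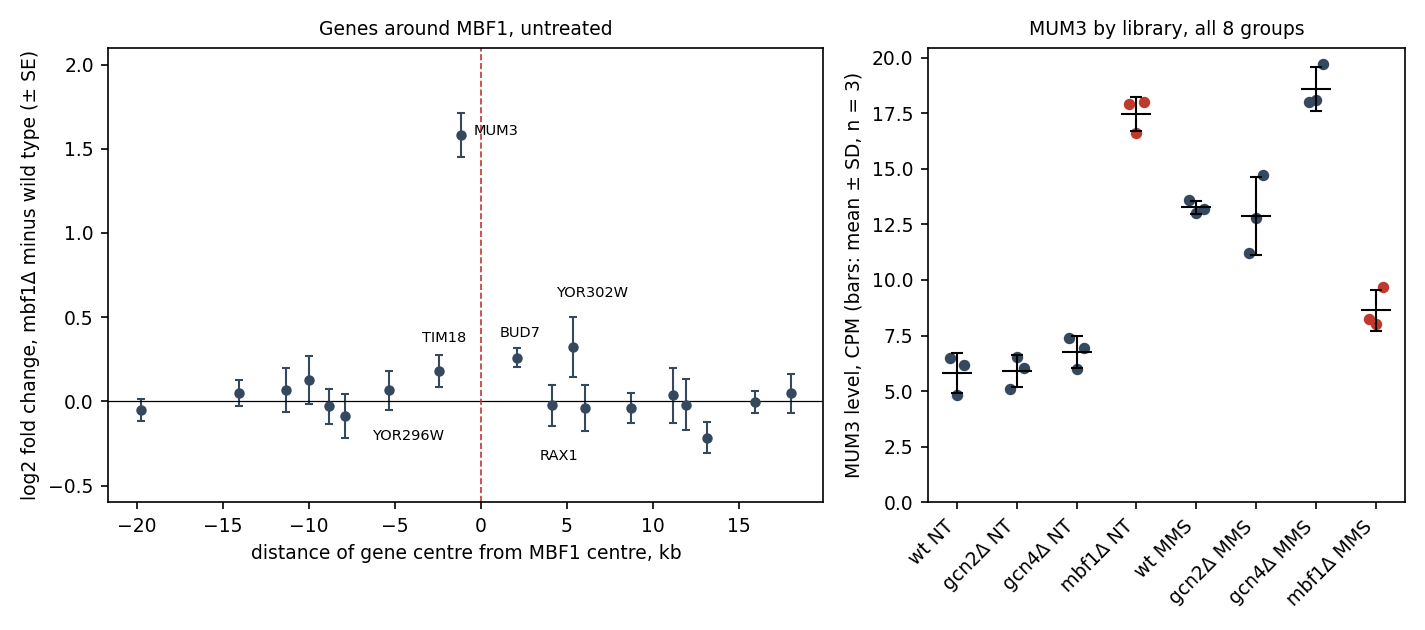
Left, log2 fold change (± SE) in untreated mbf1Δ against wild type for genes around MBF1, placed by the distance between gene centres in kb, with MBF1 at the dashed line. Right, MUM3 CPM in each library of all 8 groups (points) with mean ± SD (n = 3); untreated mbf1Δ stands at 16.6 to 18 CPM above the other untreated strains, while MMS-treated mbf1Δ is the lowest of the MMS-treated groups.

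The phosphate regulon carried most of the falls. Yeast cells sense phosphate through the cyclin-dependent kinase Pho85 with its cyclin Pho80, which keeps the activator Pho4 out of the nucleus when phosphate is plentiful. When phosphate runs low, the inhibitor Pho81 blocks the kinase, and Pho4, together with the homeodomain protein Pho2, turns on secreted phosphatases, transporters and polyphosphate synthesis. Pho4 binds the core CACGTG strongly and the core CACGTT more weakly.

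The 300 bases that begin 400 bases upstream of the start codon are shown for 5 of the 6 phosphate genes that fell, because each of these windows holds the Pho4 core. PHO11 is left out, since its coding sequence is nearly the same as that of PHO12. Sequences are from the R64 genome and run 5′ to 3′ on the coding strand, with capitals for CACGTG and for CACGTT or its reverse complement AACGTG. They lie at chrII:431052-431351 (minus strand) for PHO5, chrVIII:551699-551998 (plus strand) for PHO12, chrII:798623-798922 (minus) for PHO89, chrVIII:375201-375500 (minus) for SPL2 and chrXVI:517119-517418 (minus) for VTC3.
PHO5: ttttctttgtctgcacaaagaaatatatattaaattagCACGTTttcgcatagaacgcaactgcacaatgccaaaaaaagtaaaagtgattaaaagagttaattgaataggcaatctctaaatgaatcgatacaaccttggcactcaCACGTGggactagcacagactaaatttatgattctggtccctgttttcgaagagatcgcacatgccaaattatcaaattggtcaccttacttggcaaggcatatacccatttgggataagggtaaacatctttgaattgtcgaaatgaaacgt
PHO12: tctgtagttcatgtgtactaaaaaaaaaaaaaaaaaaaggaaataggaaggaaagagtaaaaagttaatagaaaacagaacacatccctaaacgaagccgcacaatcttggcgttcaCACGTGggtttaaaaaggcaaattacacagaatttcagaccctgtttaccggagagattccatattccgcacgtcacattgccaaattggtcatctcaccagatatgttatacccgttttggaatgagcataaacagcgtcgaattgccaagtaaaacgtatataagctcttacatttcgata
PHO89: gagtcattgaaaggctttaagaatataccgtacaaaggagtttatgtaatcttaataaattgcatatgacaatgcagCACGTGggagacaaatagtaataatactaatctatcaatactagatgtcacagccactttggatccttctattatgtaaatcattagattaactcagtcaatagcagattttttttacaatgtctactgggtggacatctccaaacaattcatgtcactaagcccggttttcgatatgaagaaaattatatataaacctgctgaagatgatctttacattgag
SPL2: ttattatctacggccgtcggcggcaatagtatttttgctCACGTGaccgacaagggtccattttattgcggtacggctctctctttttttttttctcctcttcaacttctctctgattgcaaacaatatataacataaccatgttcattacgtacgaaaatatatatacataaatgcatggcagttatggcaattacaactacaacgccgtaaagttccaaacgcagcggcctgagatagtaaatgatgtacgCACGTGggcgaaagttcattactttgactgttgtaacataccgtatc
VTC3: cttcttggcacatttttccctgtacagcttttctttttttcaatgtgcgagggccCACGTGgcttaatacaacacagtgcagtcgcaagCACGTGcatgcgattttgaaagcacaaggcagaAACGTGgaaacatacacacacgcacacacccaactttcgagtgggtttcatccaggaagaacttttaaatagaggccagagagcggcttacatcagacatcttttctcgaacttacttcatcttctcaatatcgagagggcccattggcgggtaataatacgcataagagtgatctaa

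All 6 phosphate genes that fell held CACGTG in this window, against 268 of 5889 genes (4.55%) in all, and 13 of the 22 genes on the phosphate list held it. The core starts 253 bases before the start codon in PHO5, 283 in both PHO11 and PHO12, 323 in PHO89, 361 and 147 in SPL2, and 345 and 311 in VTC3. CACGTT, searched on both strands as CACGTG was, was found in the windows of PHO5 and VTC3, against 9.97% of all genes. MUM3, YFL066C and YFL067W held neither core there. The window was chosen after the positions had been seen, and a match describes the sequence and not the binding of a factor. It leaves out CACGTG further upstream in PHO84 (436 and 414 bases), PHO8 (534) and GIT1 (518), which did not pass edgeR's test. In SPL2, which passed, it leaves out CACGTG at 90 and 31 bases. For CACGTT it leaves out PHO12 (418), PHO11 (416) and PHO89 (463), which passed. Sites of CACGTT in PHO84 (587), PHM6 (563 and 434), PHO80 (490) and PHO81 (8), which did not pass, also lie outside it. Within 500 and 600 bases of the start codon, 6.27% and 7.29% of all genes held CACGTG. PHO11 and PHO12, and VTC3 and CTF19 with their shared upstream region, count as separate genes here. Pho4 is known to turn on such genes, so these counts are not a test.

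The secreted acid phosphatases that phosphate represses fell by about the same amount. PHO5 (YBR093C, chromosome II, 429548 to 430951), the main repressible acid phosphatase, had 92, 111 and 85.5 CPM in wild type and 54.3, 55.1 and 53.9 CPM in mbf1Δ. It fell by 0.82 on the log2 scale (SE 0.11, edgeR adjusted p = 0.00054), and the mutant libraries lay close together and below all of wild type. PHO12 (YHR215W, chromosome VIII, 552099 to 553502) had 207, 253 and 212 against 101, 130 and 112 CPM, and fell by 0.97 (SE 0.13, adjusted p = 0.00054). PHO11 (YAR071W, chromosome I, 225460 to 226863) had 63.1, 75 and 65.4 against 30.1, 43.1 and 35.4 CPM, and fell by 0.91 (SE 0.14, adjusted p = 0.00273). PHO11 and PHO12 share 99.7% of their sequence, so how reads were divided between them is uncertain and they are not separate observations. PHO3, the acid phosphatase gene next to PHO5 that phosphate does not repress, had 552, 601 and 475 against 509, 537 and 542 CPM. The groups overlapped, and the log2 fold change was -0.04 (95% interval -0.25 to 0.18, adjusted p = 0.999).

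Of the transporters and their regulator, PHO89 and SPL2 fell in edgeR's test, and PHO84 passed with other tools. PHO89 (YBR296C, chromosome II, 796798 to 798522), the sodium-coupled phosphate transporter, had 37.7, 35.4 and 25.3 CPM in wild type and 8.9, 12.7 and 14.1 CPM in mbf1Δ, the largest fall among the genes that passed (log2 -1.45, SE 0.24, adjusted p = 0.00435). SPL2 (YHR136C, chromosome VIII, 374654 to 375100), which restrains low-affinity phosphate uptake, had 23.5, 26.5 and 30.3 against 15.3, 18.2 and 15.6 CPM (log2 -0.72, SE 0.15, adjusted p = 0.0425). Neither pair of groups overlapped. SPL2 passed in 1 of the 6 fits that left out a library (adjusted p up to 0.369 over all alternatives), and PHO89 in 5 of 6, with an adjusted p of 0.0629 without mbf1Δ replicate 1. PHO84, the high-affinity transporter, had 1350, 1412 and 1065 against 620, 790 and 765 CPM. Its libraries did not overlap either, but the difference (log2 -0.81, SE 0.20) had an adjusted p of 0.197. DESeq2 and limma on TPM called PHO84 lower.

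Of the polyphosphate synthesis genes, VTC3 (YPL019C, chromosome XVI, 514511 to 517018) passed. It had 265, 266 and 305 CPM in wild type and 165, 203 and 165 CPM in mbf1Δ (log2 -0.65, SE 0.12, adjusted p = 0.0117). The call was lost in 3 of the 6 fits that left out a library, including those without wild type replicate 3 and without mbf1Δ replicate 1, and also with 6 libraries and with limma on TPM (adjusted p up to 0.323). VTC4, which encodes the polymerase subunit of the same complex, had 343, 356 and 324 against 218, 268 and 247 CPM and came closest to the threshold among the phosphate genes that did not pass (log2 -0.48, SE 0.10, adjusted p = 0.0579), and DESeq2 called it. VTC1 (log2 -0.34, adjusted p = 0.558) and VTC2 (log2 -0.16, adjusted p = 0.905) did not pass, and in neither did the libraries of the groups overlap.

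The signalling genes and the rest of the phosphate list did not pass edgeR's test. PHO81, itself induced by Pho4, had 87.9, 94.2 and 96.8 CPM in wild type and 70.9, 79.8 and 68.8 CPM in mbf1Δ (log2 -0.35, SE 0.08, adjusted p = 0.115). The vacuolar alkaline phosphatase gene PHO8 had 202, 222 and 184 against 151, 155 and 153 CPM (log2 -0.40, SE 0.09, adjusted p = 0.115). DESeq2 called both PHO81 and PHO8, and the edgeR fit of the 12 untreated libraries called PHO8. For the kinase, cyclin and transcription factor genes PHO85 (log2 0.04), PHO80 (0.06), PHO4 (-0.17) and PHO2 (0.02), the groups overlapped and the adjusted p was 0.999 for each. Among the remaining members, PHM6 had -0.34, CTF19, which shares its upstream region with VTC3, had -0.33, and GPP2, GIT1 and PHM8 had -0.12, -0.03 and 0.00.

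Over all 22 phosphate genes, 6 passed as lower and 0 as higher, and the median log2 fold change was -0.34, beside 0.0030 over all genes. The list was chosen with earlier results of these data known, and it counts the near-identical PHO11 and PHO12 separately. The 3 mutant libraries lay below all 3 wild type libraries for 13 of the 22, against 3.31% of all genes. The mean log2 CPM of the list was 6.30, 6.37 and 6.25 in the wild type libraries and 5.81, 5.97 and 5.92 in the mutant libraries. Members other than PHO5, PHO12, PHO11, PHO89, SPL2 and VTC3 are named with their values seen. The number called rested on single libraries: without mbf1Δ replicate 1 it was 3 (PHO5, PHO11 and PHO12), without wild type replicate 3 or mbf1Δ replicate 3 it was 4, and DESeq2 called 10. With the log2 share of ribosomal RNA reads as a covariate, added after the data were seen, 5 of the 6 still passed and SPL2 did not.

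**Figure D3:**
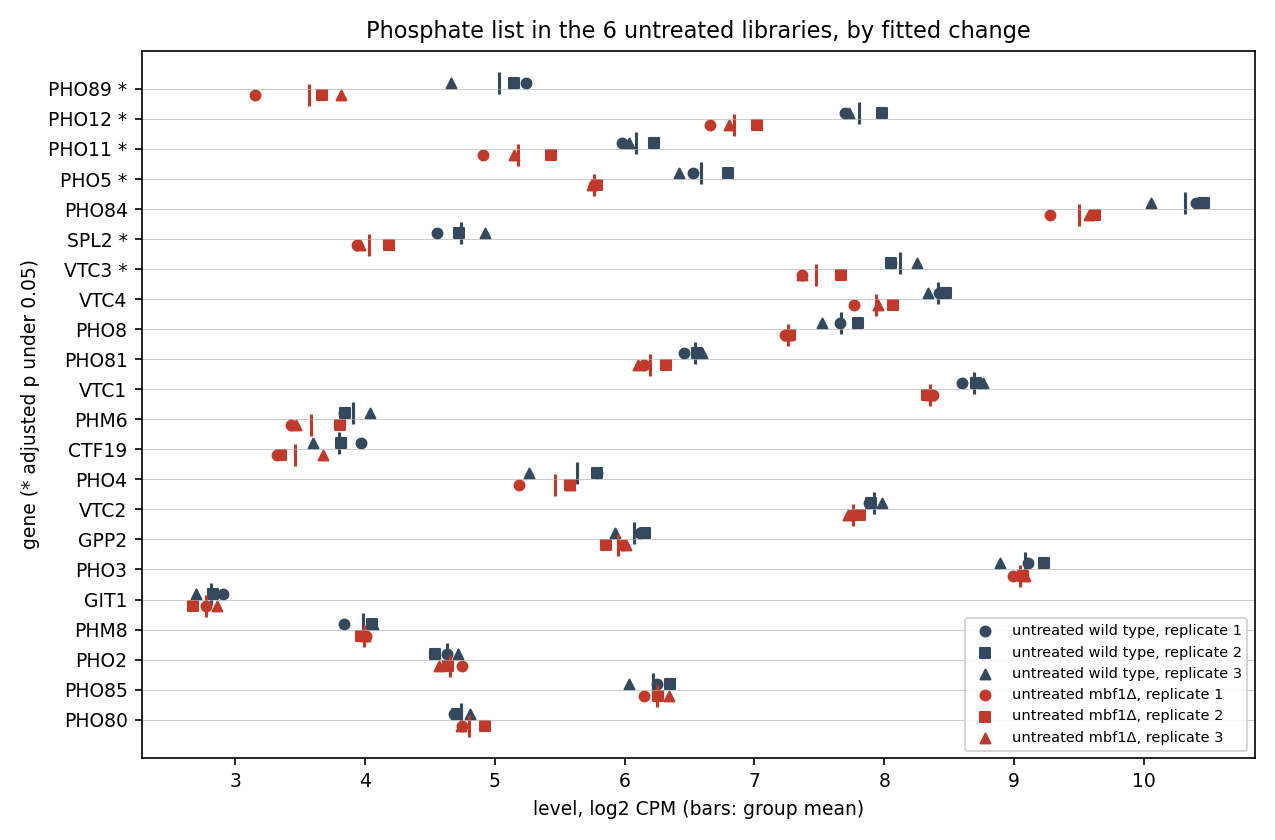
Level (log2 CPM) of the 22 phosphate list genes in the 3 untreated wild type (dark) and 3 untreated mbf1Δ (red) libraries, ordered by fitted change, with bars at the group means and stars for an adjusted p under 0.05. In the upper 12 genes all red points lie left of the dark ones; in the lowest rows, from GPP2 down to PHO80, they intermingle.

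The MMS-treated cells are other libraries of the same strains. There 17 of the 22 phosphate genes were lower in mbf1Δ than in wild type and 0 were higher, beside 19.8% lower over all genes, and the list median was -0.67, beside 0.037 over all genes. PHO5 had 60.2, 53.8 and 52.7 CPM in MMS-treated wild type and 28.3, 35.3 and 30.5 CPM in MMS-treated mbf1Δ. This difference (log2 -0.83, SE 0.12, adjusted p = 6.48e-06) was close to the untreated one, and the change between treatments was -0.01 (SE 0.16, adjusted p = 0.982). For PHO89, PHO11 and PHO12 the MMS-treated differences were -1.39, -0.73 and -1.12, and their change between treatments did not pass either (adjusted p from 0.575 to 0.918). SPL2 fell further after MMS (-1.63, with a change between treatments of -0.91, SE 0.20, adjusted p = 0.002). Over the list, this change passed as lower for 7 of the 22, SPL2 included, and as higher for 0, beside 12.4% lower over all genes. The list median of the change was -0.26.

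The other deletion strains give a scale for the phosphate genes. Untreated gcn2Δ and gcn4Δ were set against the same wild type libraries, so their values stand beside those of mbf1Δ and are not separate evidence. In gcn2Δ 6 of the 22 were lower and 0 higher (0.309% and 0.12% over all genes, list median -0.37), with PHO89 at -1.57 and PHO12 at -0.64. In gcn4Δ 13 were higher and 1 lower (9.19% and 10.1% over all genes, list median 0.41), with PHO5 at 1.18 and PHO89 at 0.92. Set directly against gcn2Δ, mbf1Δ had a phosphate list median of -0.05. Of the 22 genes, 0 passed as higher and 0 as lower (0.155% and 0% over all genes). PHO5, for which mbf1Δ had 54.3, 55.1 and 53.9 CPM and gcn2Δ 67, 75.6 and 64.9 CPM, differed by -0.34 (95% interval -0.58 to -0.11, adjusted p = 0.25), which does not show that the strains are alike. Against gcn4Δ, 15 of the 22 were lower in mbf1Δ and 0 higher (3.49% lower over all genes), including PHO5 at a 4.01-fold lower level (adjusted p = 5.1e-11).

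YFL066C and YFL067W are uncharacterised open reading frames near a telomere. YFL066C (chromosome VI, 1437 to 2615) had 7.5, 6.32 and 5.14 CPM in wild type and 3.12, 1.8 and 2.08 CPM in mbf1Δ (log2 -1.41, SE 0.25, adjusted p = 0.0101). YFL067W (chromosome VI, 836 to 1363) had 8.3, 10.9 and 7.99 against 4.95, 3.76 and 4.15 CPM (log2 -1.07, SE 0.20, adjusted p = 0.0117). Both were also lower after MMS (-1.53 and -0.99, adjusted p = 1.19e-05 and 7.36e-05). Their groups did not overlap, but both have near-identical copies at other chromosome ends, with 99.5% identity to YHR218W for YFL066C and 94.9% to YJL225C for YFL067W, so the source of the reads is uncertain. Each call was kept in 3 of the 6 fits that left out a single library, with adjusted p up to 0.118 for YFL066C and 0.14 for YFL067W.

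Gcn4-controlled amino acid biosynthesis, the set through which Mbf1 is best known, did not differ detectably before stress. Of 70 genes, 0 passed edgeR's test in either direction, 1 had an unadjusted p under 0.05, and DESeq2 and limma on TPM called 0. The median log2 fold change was -0.03, members ran from -0.16 (ARG4) to 0.17 (SNO1), and the 95% interval stayed within a 1.5-fold change for 69 of the 70. The mean log2 CPM of the list was 7.74, 7.77 and 7.63 in wild type and 7.67, 7.69 and 7.74 in mbf1Δ, so the groups overlapped.

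For each of the genes that follow, taken whatever their values, the groups overlapped. ARG1, which encodes argininosuccinate synthetase, had 50.4, 51.7 and 47 CPM in wild type and 50.2, 49.5 and 56.6 CPM in mbf1Δ (95% interval of the log2 fold change -0.12 to 0.26). HIS4, of histidine synthesis, had 499, 485 and 386 against 403, 404 and 453 CPM (-0.34 to 0.10). The intervals for LYS1, of lysine synthesis, and SNZ1, of vitamin B6 synthesis, were -0.05 to 0.23 and -0.07 to 0.31. GCN4 itself had 961, 946 and 1007 against 1040, 1091 and 977 CPM (-0.07 to 0.26), and GCN2 had 64.5, 69.6 and 75.9 against 74.6, 73.6 and 63.4 CPM (-0.23 to 0.24).

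These genes separated once cells were treated. After MMS, 61 of the 70 were lower in mbf1Δ and 0 higher (19.8% and 21.6% over all genes), with a median of -1.17 beside 0.037 over all genes, and the change between treatments passed as lower for 57 (12.4% of all genes). ARG1 stood at 1060, 952 and 1008 CPM in MMS-treated wild type and at 91.1, 103 and 107 CPM in MMS-treated mbf1Δ (log2 -3.33, SE 0.09, adjusted p = 3.81e-18). The other strains did show a basal difference against the same untreated wild type: 3 of the 70 were lower in gcn2Δ (0.309% over all genes), and 36 lower and 1 higher in gcn4Δ (10.1% and 9.19%). Set directly against these strains, untreated mbf1Δ was higher for 3 genes than gcn2Δ (0.155% over all genes) and for 35 than gcn4Δ, with 1 lower than gcn4Δ (6.1% and 3.49%). ARG1, at 36.5, 39.6 and 34 CPM in gcn2Δ and 25.9, 23.7 and 26.6 CPM in gcn4Δ, was higher in mbf1Δ by 0.51 (SE 0.09, adjusted p = 0.00876) and by 1.04 (SE 0.09, adjusted p = 6.05e-08).

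Over all genes, untreated mbf1Δ and gcn2Δ differed at 9 genes (0.155%), all higher in mbf1Δ, and at 0 lower (0%), where 395 (6.78%) had an unadjusted p under 0.05, DESeq2 called 7 and limma on TPM 2. A fit of only these 6 libraries called 335 higher and 160 lower. Besides MUM3 and ARG1, the 9 included AIM14 (log2 1.90), MRX10 (1.25), ATP6 (1.97), YJL225C (0.61), FRE4 (0.58) and GDH1 (0.45), named after their values were seen. YJL225C is a near-identical copy of YFL067W and of YIL177C, so the source of its reads is uncertain. Against wild type, mbf1Δ had AIM14 at 0.02, MRX10 at 0.11, YJL225C at -0.05, FRE4 at -0.0007 and GDH1 at 0.17. The edgeR adjusted p was 0.999 for each of these. ATP6 (1.13 against wild type, adjusted p = 0.681) had a mean of at most 12.7 counts in mbf1Δ and wild type. Against gcn4Δ, 355 genes (6.1%) were higher in mbf1Δ and 203 (3.49%) lower, while limma on TPM called 71 and 2935 with the median of all genes shifted by -0.33.

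Of 44 genes for translation control and for factors of collided ribosomes, 0 passed edgeR's test, 3 had an unadjusted p under 0.05, DESeq2 and limma on TPM called 0, and all 44 had intervals within a 1.5-fold change. HEL2, the ubiquitin ligase that marks collided ribosomes, had 108, 108 and 106 CPM against 103, 110 and 105 CPM (log2 -0.02, SE 0.04). GCN1, the ribosome-bound activator of Gcn2, had 1083, 1092 and 955 against 929, 928 and 965 CPM (-0.15, SE 0.08), and ASC1, the ribosomal scaffold, had 5932, 6087 and 3977 against 4325, 4944 and 5446 CPM (-0.12, SE 0.19). The adjusted p was 0.999 for each of these 3. The 3 genes that need a programmed frameshift for their protein, EST3 (-0.10), ABP140 (0.09) and OAZ1 (0.08), did not pass at the mRNA level, and the widest 95% interval, that of OAZ1, ran from -0.37 to 0.53.

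No list other than the phosphate regulon held a gene that passed. The other 32 lists covered 956 tested genes, of which 42 (4.39%) had an unadjusted p under 0.05, DESeq2 called 0 and limma on TPM called 1 (SSA1, a cytosolic Hsp70). Of the 956, 901 had intervals within a 1.5-fold change and 946 within a 2-fold change. Medians of lists with at least 5 tested members ran from -0.085 (glycolysis and fermentation) to 0.14 (histones). In ribosome biogenesis, 88 of 100 genes were below 0 with a median of -0.07, and in the proteasome list 30 of 34 were above 0 with a median of 0.063, all without a call. Over all tested genes, 48.8% were below 0 and 51.2% above. The mutant libraries lay below all of wild type for 11 of the 100 ribosome biogenesis genes and above for 0. For the 34 proteasome genes they lay above for 7 and below for 0. Over all genes the shares were 3.31% below and 5.19% above. The 32 Hsf1 chaperone genes had a median of 0.082, and their mRNAs of untreated mbf1Δ lay above all wild type libraries for 7 of 32, against 5.19% of all genes. An unadjusted p under 0.05 in edgeR's test was reached by 7 of the 32, against 4.72% of all genes. After MMS 31 of these 32 were higher in mbf1Δ (median 0.87), and 67 of the 100 ribosome biogenesis genes were higher and 1 lower (median 0.40), beside 21.6% higher and 19.8% lower over all genes.

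**Figure D4:**
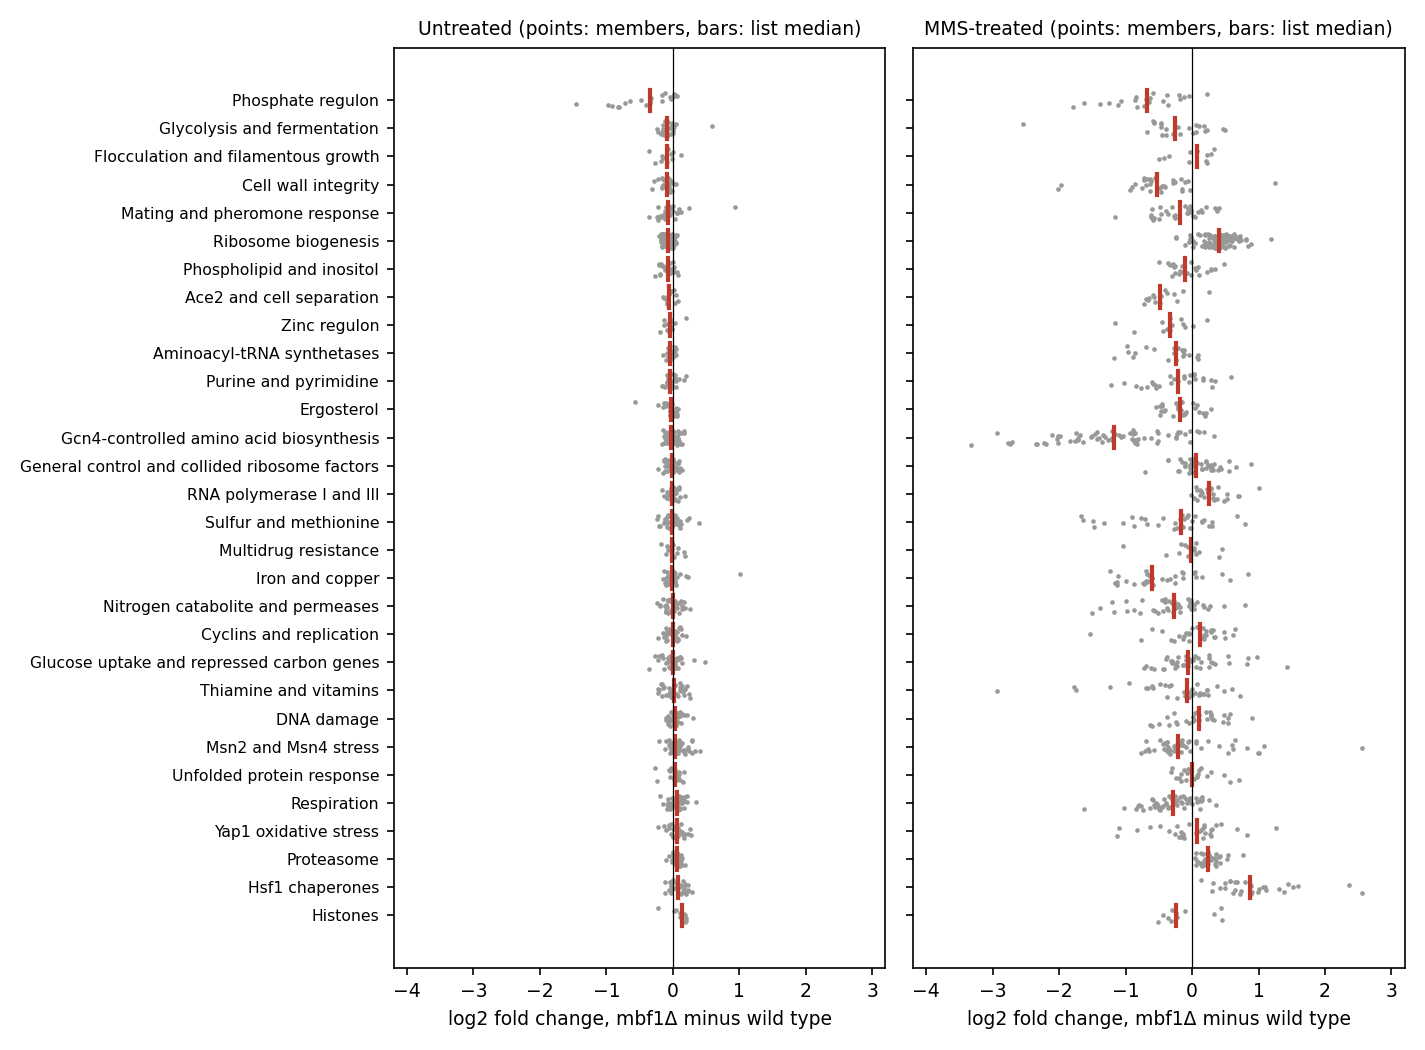
Log2 fold change of mbf1Δ against wild type for every tested member (points) of the lists with at least 5 tested members, without treatment (left) and after MMS (right), with bars at the list medians. Without treatment every list but the phosphate regulon centres between -0.085 and 0.14, while after MMS the amino acid list moves to -1.17 and the Hsf1 chaperones to 0.87.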

How the data were processed

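Per the labels' protocols, hot phenol extraction was followed by poly-A selection and paired sequencing. The submitters' processing notes name FastQC 0.11.9, fastp, Salmon 1.10.1, DESeq2 1.38.3 and build R64. The authors' deposited files give per gene an estimated count (fragments assigned by Salmon) and TPM, abundance per effective length. Their 3 deposited comparison tables concern the response to MMS and were not used here.

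After rounding, the estimated counts of all 24 libraries entered a single edgeR fit (version 4.0.16, R 4.3.3), which has a coefficient for each of the 8 groups. filterByExpr with a minimum count of 10 kept 5824 of 5912 genes, and TMM scaled the libraries. Each contrast had a two-sided quasi-likelihood test, p-values were adjusted by Benjamini and Hochberg's method across every gene tested, and a gene is called at an adjusted p under 0.05. The deleted genes of a contrast were left out of its counts. SE is the standard error that the test statistic implies. The biological coefficient of variation was 8.49% in this fit, 10.6% within untreated wild type and 7.43% within untreated mbf1Δ. It was 5.41% within untreated gcn2Δ, 5.39% within untreated gcn4Δ, 4.99% within MMS-treated wild type and 13.7% within MMS-treated mbf1Δ. Whether sharing a single spread accounts for the larger counts against gcn2Δ and gcn4Δ with 6 libraries was not tested. Libraries of a group differed beyond sampling noise (chi-square per degree of freedom from 7.26 to 93.7 in the 2 main groups). The fit was checked on simulated data.

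Near-identical copies (at least 90% identity over at least 50% of the length) were found for 300 genes, and 99 genes overlapped another by more than 10%. The labels and files give no strand setting.

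The compared groups and the 33 gene lists were chosen with earlier results of these data known. Named genes were the 12 largest rises and falls past the threshold with groups that did not overlap and a mean of at least 50 counts, up to 6 genes in each direction that passed against all 3 other untreated strains, the 2 members of each list and direction with the smallest adjusted p, the 3 nearest genes on each side of MBF1, and the translation, frameshift, amino acid and marker genes given whatever their values. Others are said to be named after their values were seen. Alternatives were DESeq2 1.42.0 and its size factors, limma 3.58.1 on log2(TPM + 1), no filter, no ribosomal RNA genes, 12 or 6 libraries, a replicate block, each library left out, and a covariate added later.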

Additional observations from a re-analysis of the deposited data

Results flagged for a closer look

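For 15 of the named genes the mbf1Δ effect differed between the MMS-treated and the untreated cells by the test of that difference in the same edgeR fit (adjusted p under 0.05, MMS-treated minus untreated, log2 scale). Over all genes, the same test passed for 1396 (24%), 720 of them lower (12.4%). The values of the 15 named genes were -2.21 for MUM3, where the sign turned. Among the phosphate genes they were -0.91 for SPL2, -0.98 for PHO84, -0.92 for PHM6, -0.85 for PHM8, -0.47 for GPP2, -0.35 for PHO81 and -0.28 for VTC2. In the amino acid pathway they were -3.40 for ARG1, -2.59 for HIS4, -1.85 for LYS1, -1.69 for HIS3, -3.06 for SNZ1 and -0.80 for GCN4. HIS3 is also a marker gene of the strain background. YOR302W, the short open reading frame upstream of CPA1, had -2.97. The coding regions of YOR302W and CPA1 begin 5079 and 5213 bases from that of MBF1. With the 400 added bases their gene models overlap, so how reads were divided between them is uncertain. Dixon's test for a single outlying value was not run, since it was set for groups of 4 to 10 libraries.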

How the results depend on the processing

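The untreated counts of 1 higher and 8 lower gene were unchanged with DESeq2 size factors, no filter, no ribosomal RNA genes and the replicate block. They became 2 higher with the ribosomal RNA share as a covariate (added after seeing the data), 7 higher with limma on TPM, 3 higher and 13 lower with DESeq2, and 4 lower with the 6 libraries alone. Leaving out single libraries gave 1 to 2 higher and 4 to 7 lower. MUM3, PHO5, PHO11 and PHO12 passed under all 15 alternatives, PHO89 under 14, YFL067W under 11, VTC3 and YFL066C under 10 and SPL2 under 7. The phosphate median was -0.24 with limma on TPM and -0.38 to -0.30 without single libraries. The amino acid median was 0.069 with limma on TPM and -0.067 to 0.0099 without single libraries.

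Against gcn2Δ (9 higher, 0 lower) the counts were 335 and 160 with 6 libraries, 24 and 7 with DESeq2, 4 and 2 with limma on TPM and 4 and 1 with the covariate, 1 lower with 12 libraries, and 4 to 8 higher and 0 to 5 lower without single libraries. Against gcn4Δ (355 and 203) they were 633 and 569 with 6 libraries, 584 and 793 with the covariate, 71 and 2935 with limma on TPM, 324 lower with 12 libraries, and 166 to 312 and 96 to 181 without single libraries. For MMS-treated mbf1Δ against wild type (1258 and 1153) they were 717 higher with 6 libraries, 530 lower with limma on TPM, and 1009 to 1410 and 967 to 1197 without single libraries. On TPM the median of all genes shifted by -0.33 against gcn4Δ, by -0.24 against gcn2Δ and by 0.21 after MMS, and by 0.085 in the untreated comparison with wild type. The cause of the changes was not tested.

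Libraries of the same replicate number did not deviate together (correlations of -0.12, -0.038 and -0.31 between mbf1Δ and wild type), no mbf1Δ library correlated best with its own number in wild type, and the replicate block kept 1 and 8 calls. With 3 libraries a group and a median 95% half-width of 0.21 on the log2 scale, smaller differences were not detectable for a typical gene. This width is not adjusted for the number of genes tested, so larger differences could also miss the threshold. BUD7, at 0.26, had an edgeR adjusted p of 0.0795.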
